A study of Mus musculus with 3 samples.

Results

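Messenger RNA of 7 genes that restrain the Ras to ERK cascade was followed across the cells of 3 mouse melanomas. The genes were the dual-specificity phosphatase genes Dusp4 and Dusp6, the Sprouty genes Spry1, Spry2 and Spry4, and the Sprouty-related genes Spred1 and Spred2. They were chosen by name, as 7 of the 36530 features of the count tables, and all 7 were found under their Entrez identifiers. Each level is the number of unique molecular identifiers (UMIs, 1 per captured RNA molecule) of the gene, summed over the cells of a cluster or compartment and divided by all UMIs of those cells, in counts per 1000000 UMIs (CPM).

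The tumors came from C57BL/6 mice carrying Braf LSL.V600E and Tyr.CreER, with a Rosa26 LSL.tdTomato reporter, and were started by 4-OH tamoxifen on the skin of young adult animals. Cre recombinase is driven here by a tyrosinase promoter, which is active in melanocytes, so the Braf change is shared by the tumor cells of all groups while stromal and immune cells are those of the host. The groups were an untreated tumor, a tumor that regressed under vemurafenib, an inhibitor of the mutant Braf kinase, and a tumor that progressed under it. There was 1 tumor in each group, so a difference between groups cannot be told apart from a difference between animals, no test between groups was made, and the 95% intervals below cover counting error only.

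ERK, the last kinase of the cascade, switches on genes whose products damp the cascade again. Dusp6 removes the activating phosphates from ERK in the cytoplasm and Dusp4 does so in the nucleus, Sprouty proteins act near the receptors and Ras, and Spred proteins bring neurofibromin to Ras at the membrane. In melanoma with mutant Braf these genes are used as a readout of how strongly ERK signals, and a Braf inhibitor can act in the opposite direction in cells with normal Braf.

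The promoters are shown because the members are read as targets of the same cascade, whose ETS factors bind a CGGAAG core. RefSeq promoter windows of build GRCm38.p6, running from 250 bases before to 50 bases after the start site, were at hand for 5 members (Dusp6, Spry1, Spry2, Spred1 and Spred2). The letters CGGAAG, on either strand, stood in the windows of 3 of them, and in 16.9% of all 32851 windows. They are in capitals below. Dusp6 lies at chr10:99262981-99263280, Spred1 at chr2:117120821-117121120 and Spred2 at chr11:19924192-19924491, all on the plus strand.
Dusp6: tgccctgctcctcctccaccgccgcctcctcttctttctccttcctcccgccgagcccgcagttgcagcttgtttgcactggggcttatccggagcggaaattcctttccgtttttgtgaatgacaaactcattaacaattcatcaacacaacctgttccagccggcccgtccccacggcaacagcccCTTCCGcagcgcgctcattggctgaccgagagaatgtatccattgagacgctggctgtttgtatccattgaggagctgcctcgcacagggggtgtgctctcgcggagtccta
Spred1: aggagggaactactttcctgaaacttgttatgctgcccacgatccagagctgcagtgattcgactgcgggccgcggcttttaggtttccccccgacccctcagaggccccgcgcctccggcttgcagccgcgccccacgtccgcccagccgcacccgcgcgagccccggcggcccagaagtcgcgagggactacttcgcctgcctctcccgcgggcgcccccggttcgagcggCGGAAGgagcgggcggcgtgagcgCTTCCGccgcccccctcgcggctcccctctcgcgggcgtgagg
Spred2: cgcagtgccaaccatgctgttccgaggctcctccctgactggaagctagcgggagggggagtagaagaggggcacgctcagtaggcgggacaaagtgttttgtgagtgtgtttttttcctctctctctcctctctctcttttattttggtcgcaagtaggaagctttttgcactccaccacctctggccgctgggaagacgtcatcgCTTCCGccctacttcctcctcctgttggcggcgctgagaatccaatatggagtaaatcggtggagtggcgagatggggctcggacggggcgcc
The Dusp6 match began 62 bases before the start site, the Spred2 match 43 bases before it, and the Spred1 matches at 17 bases before it and at base 8 after it. The Spry1 and Spry2 windows held no match. The AP-1 letters TGANTCA and the cyclic AMP response letters TGACGTCA, searched on both strands, stood in none of the 5 windows and in 7.81% and 1.79% of all windows. The letters are a description of the windows and not of binding.

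From the untreated tumor 4095 cells were profiled, from the regressed one 3726 and from the progressed one 4849, with medians of 4496, 2658 and 4566 UMIs per cell. Cells were taken with the cluster names the authors deposited, in 3 compartments: tumor cells (Tumor1 and Tumor2), stroma (Stroma1 to Stroma10) and immune cells (7 clusters). The regressed library stood apart. It alone held Y-linked transcripts in number (220 CPM over 4 genes, against 0.946 and 1.19), its haemoglobin share was 3.95% against 0.271% and 0.00844%, and its tumor cells were shallow, with a median of 832 UMIs against 4078 and 4655.5. Its cells fell into clusters that the other tumors hardly had: 349 of its 410 tumor cells were Tumor2 (4 in each other tumor) and 1537 of its 1918 stromal cells were Stroma10 (4 untreated and 7 progressed). The transgene transcripts tdTomato and tWPRE, which mark tumor cells, summed to 2535 CPM in the tumor cells of the untreated, 1359 CPM in those of the regressed and 4239 CPM in those of the progressed tumor, against 36.7 to 42.4 CPM in stroma. At least 1 such UMI was found in 45 of 48, 214 of 410 and 156 of 160 tumor cells. In stroma it was found in 449 of 2628, 209 of 1918 and 603 of 3422 cells. Markers of other cells differed between the libraries, and those of mast, red blood, NK and T cells were highest in the regressed one. In tumor cells the 4 mast cell markers summed to 22.7, 396 and 47.6 CPM, the 3 red blood cell markers to 45.5, 1383 and 0 CPM, and the 5 NK and T cell markers to 3.79, 83.9 and 2.38 CPM. In stroma the same lists gave 10.5, 389 and 40.6 CPM, 32.1, 1380.3 and 0.512 CPM, and 2.56, 79.7 and 2.33 CPM. The 4 neutrophil markers had another order, with 1266, 460 and 3.57 CPM in tumor cells and 651, 437 and 4.78 CPM in stroma. The 5 macrophage and monocyte markers were at 565, 213 and 111 CPM in tumor cells and at 34.4, 133 and 41.9 CPM in stroma, and the 3 keratinocyte markers at 106, 591 and 623 CPM in tumor cells and at 157, 624 and 221 CPM in stroma. Their part in the members' values was not tested.

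In tumor cells the 7 members together made up 568 CPM when untreated, 703 CPM after regression and 813 CPM after progression. In stroma the sum was 776, 615 and 775 CPM, and in immune cells 225, 298.5 and 289 CPM. Immune cells thus held the least in every tumor. Among the differences with a counting interval apart from 0, the direction of 3 turned with the processing. Regressed over untreated tumor cells, a log2 ratio of 0.31, was -0.15 with equal weight per cell and -0.18 after thinning to 1000 UMIs per cell. Immune cells of that pair were at -0.18 under the trimmed mean scaling TMM, and progressed over regressed stroma was at -0.15 in the 4 clusters all tumors shared. The sums hid opposite differences of single members. All 7 reached the minimum of 20 UMIs over the pair of tumors compared in every compartment and pair. Called below means at least 2-fold apart, a rule of size and not a test.

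In tumor cells of the regressed tumor Dusp4, Spred1 and Spred2 were at least 2-fold above the untreated tumor, 3 of 7 members against 22.7% of the 6953 features with enough UMIs. Between the progressed and the regressed tumor 4 of 7 members were called, Dusp6 and Spry4 higher and Dusp4 and Spred1 lower, against 17.2% of features. Between the progressed and the untreated tumor Dusp4 and Spry4 were called, both higher, 2 of 7 against 15.3%, and after thinning 0 of 7 were called. In stroma 2 of 7 were called for the regressed over the untreated tumor (Dusp4 higher, Dusp6 lower, against 20.8%), the same members the other way round for the progressed over the regressed tumor (20.8%), and Dusp4 alone, higher, for the progressed over the untreated tumor (9.27%). That call was lost with equal weight per cell, without the deepest 5% of cells and in the shared clusters. In immune cells Dusp4, Spry2 and Spry4 were called higher for the regressed over the untreated tumor, where 29.4% of features were called and the median of all features was itself 0.51 log2 units higher, and after thinning 1 member was called. Spry1, Spry2 and Spry4 were called lower in the progressed than in the regressed tumor (3 of 7 against 20.3%, and 1 of 7 under TMM), and Dusp4 alone was called, higher, in the progressed over the untreated tumor (1 of 7 against 15.2%).

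**Figure D1:**
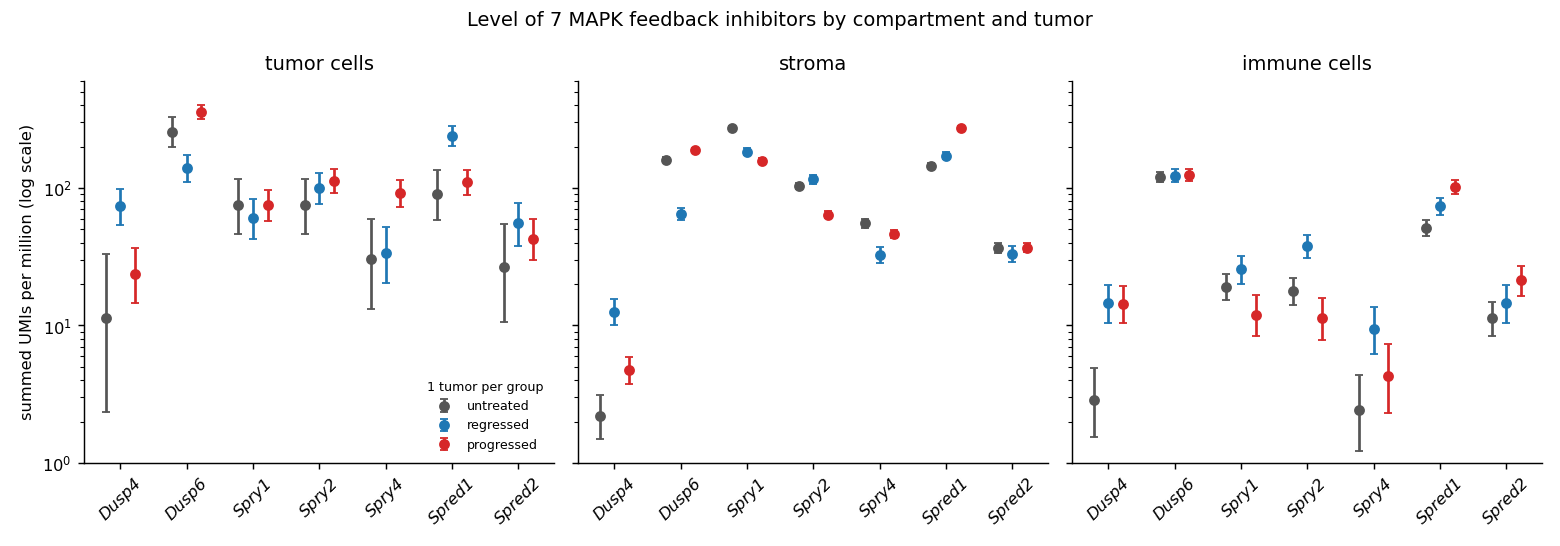
Level of each member in CPM of summed UMIs (vertical, log scale) in tumor cells, stroma and immune cells of the untreated (grey), regressed (blue) and progressed (red) tumor, with exact Poisson 95% intervals of the count, 1 tumor per group. Dusp6 in tumor cells stood at 258, 139 and 356 CPM and Dusp4 at 11.4, 73.8 and 23.8 CPM, so that the regressed tumor was lowest for the first and highest for the second.

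Among the phosphatases, Dusp6, the cytoplasmic ERK phosphatase, was the most abundant member in untreated and progressed tumor cells. Its level there was 258 CPM (68 UMIs) untreated, 139 CPM (83 UMIs) regressed and 356 CPM (299 UMIs) progressed. The regressed tumor was the lowest, with a log2 ratio over the untreated tumor of -0.89 (interval -1.37 to -0.40), and the progressed tumor exceeded the regressed one by 1.35 (0.999 to 1.72). Because the regressed tumor cells were mostly Tumor2, the Tumor1 cluster was also read alone. There Dusp6 was 263 CPM in 44 untreated cells, 86.1 CPM in 61 regressed cells (13 UMIs) and 355 CPM in 156 progressed cells. Inside Tumor1 the ratios were -1.61 (-2.60 to -0.73) for regressed over untreated and 2.04 (1.25 to 2.97) for progressed over regressed. Both were further from 0 than in all tumor cells, but their intervals held the values found there. In the regressed Tumor2 cells Dusp6 stood at 157 CPM (interval 123 to 199), above the 86.1 CPM of the regressed Tumor1 cells, whose interval of 45.8 to 147 overlapped.

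Stromal Dusp6 followed the same order, with 160 CPM untreated, 64.8 CPM regressed and 190.0 CPM progressed. The log2 ratio was -1.31 (-1.46 to -1.16) for regressed over untreated and 1.55 (1.41 to 1.70) for progressed over regressed. These are differences between unlike clusters for the most part. The regressed stroma was read from Stroma10, at 63.8 CPM, and Stroma9, at 73.8 CPM, 2 clusters next to absent elsewhere, while the high stromal values came from Stroma5 (299.7 CPM untreated, 323 CPM progressed), which had 0 regressed cells, and Stroma7 (262 CPM progressed). In Stroma3, one of the 4 stromal clusters to which every tumor gave 10 cells or more, Dusp6 was 51.8, 54.1 and 50.8 CPM, with only 2 UMIs in its 12 regressed cells. In Stroma4, Dusp6 was 108 CPM untreated and 125 CPM progressed, and its 20 regressed cells held 0 UMIs, which by the Poisson interval allows up to 149 CPM. In Stroma6 it was 116 CPM untreated, 24.1 CPM regressed (1 UMI in 13 cells) and 101 CPM progressed. In Stroma8 it was 24.6, 13.9 and 15.8 CPM, on 3, 1 and 3 UMIs. The part of the cluster mix in the stromal differences was not tested.

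Immune Dusp6 was level across the tumors in summed CPM, at 120 CPM, 123 CPM and 124 CPM, each pair within 0.25 log2 units by its interval. TMM shifts all immune features by -0.59 (regressed over untreated), 0.32 (progressed over regressed) and -0.27 (progressed over untreated). Dusp6 was thus level in CPM and not under that scaling. Inside Monocytes1 and Macrophages Dusp6 was not level. In Monocytes1 it was 71.2 CPM untreated (80 UMIs), 161 CPM regressed (133 UMIs) and 137 CPM progressed (34 UMIs). A single progressed cell gave 15 of those 34 UMIs. The regressed over untreated log2 ratio of Dusp6 there was 1.18 (0.77 to 1.60), the direction opposite to that of Tumor1. In Macrophages it was 228 CPM, 260 CPM and 193 CPM, with a progressed over regressed ratio of -0.43 (-0.82 to -0.03). Outside the compartments Dusp6 was lower under regression in Dividing (86.9 against 29.2 CPM), Undefined1 (202 against 110 CPM) and Undefined2 (50.7 against 23.7 CPM). With equal weight per cell the log2 ratio in Undefined2 went from -1.10 to -0.0083. Of 14 clusters with at least 20 Dusp6 UMIs for regressed over untreated, the interval lay below 0 in 4, above 0 in 1 and held 0 in 9.

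Dusp4, the nuclear phosphatase, was the scarcest member, with 433 UMIs in all cells against 8913 for Dusp6. In tumor cells and stroma it was highest in the regressed tumor, where its relative was lowest, and both were higher in the progressed than in the untreated tumor. In tumor cells it counted 3 UMIs untreated (11.4 CPM), 44 regressed (73.8 CPM) and 20 progressed (23.8 CPM). The log2 ratio was 2.70 (1.06 to 5.03) for regressed over untreated and -1.63 (-2.47 to -0.84) for progressed over regressed, while that of progressed over untreated, 1.07, had an interval from -0.69 to 3.46. Within the regressed tumor it was 83.2 CPM in Tumor2 (37 UMIs) and 46.3 CPM in Tumor1 (7 UMIs), with overlapping intervals. In the cells thinned to 1000 UMIs, which left out 244 of the 410 regressed tumor cells, the tumor-cell ratio of regressed over untreated was 0.92.

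Dusp4 was also higher in the other compartments of the regressed tumor. In stroma it was 2.202 CPM (31 UMIs), 12.6 CPM (81 UMIs) and 4.72 CPM (83 UMIs), and in immune cells 2.89 CPM (13 UMIs), 14.5 CPM (42 UMIs) and 14.3 CPM (43 UMIs). The regressed over untreated ratio was 2.52 (1.90 to 3.16) in stroma. It was 2.33 (1.41 to 3.35) among immune cells. In the 4 stromal clusters shared by all tumors, weighted equally, the stromal ratio was -0.13. That value rests on 1 regressed Dusp4 UMI, in Stroma8, with 0 in Stroma3, Stroma4 and Stroma6, so it cannot show a direction. Of the 81 regressed UMIs 57 came from Stroma10 (11.7 CPM) and 23 from Stroma9 (16.6 CPM). Dusp4 had the higher level in the regressed tumor, set against the untreated one, in 12 of 17 clusters. For 19.4% of features at least as many clusters were higher, and Dusp4 reached 20 UMIs in 0 of the 17. Its stromal level was 17.1% of that in tumor cells in the regressed tumor and 19.4% and 19.8% in the untreated and progressed ones. The transgene transcripts tdTomato and tWPRE, summed, were at 2.70%, 1.59% and 0.999% of their tumor-cell level in stroma.

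In the progressed tumor the Dusp4 UMIs of immune cells sat in few cells. Mastcells, a cluster whose mast cell markers summed to 75586 to 78308 CPM in the 3 tumors, held 25 of the 43 UMIs and NK_T held 11. The mast cell level was 84.1 CPM (54.4 to 124) in the progressed against 18.2 CPM (6.69 to 39.7) in the regressed tumor, a log2 ratio of 2.21 (0.88 to 3.78). A single cell gave 9 of the 25 UMIs. The 16 untreated mast cells held 2 Dusp4 UMIs (33.1 CPM, 4.01 to 120). The progressed over untreated ratio of 1.35 had an interval from -0.66 to 4.47. In NK_T Dusp4 was 113 CPM in 17 progressed cells and 20.4 CPM in 180 regressed cells (11 UMIs in each).

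**Figure D2:**
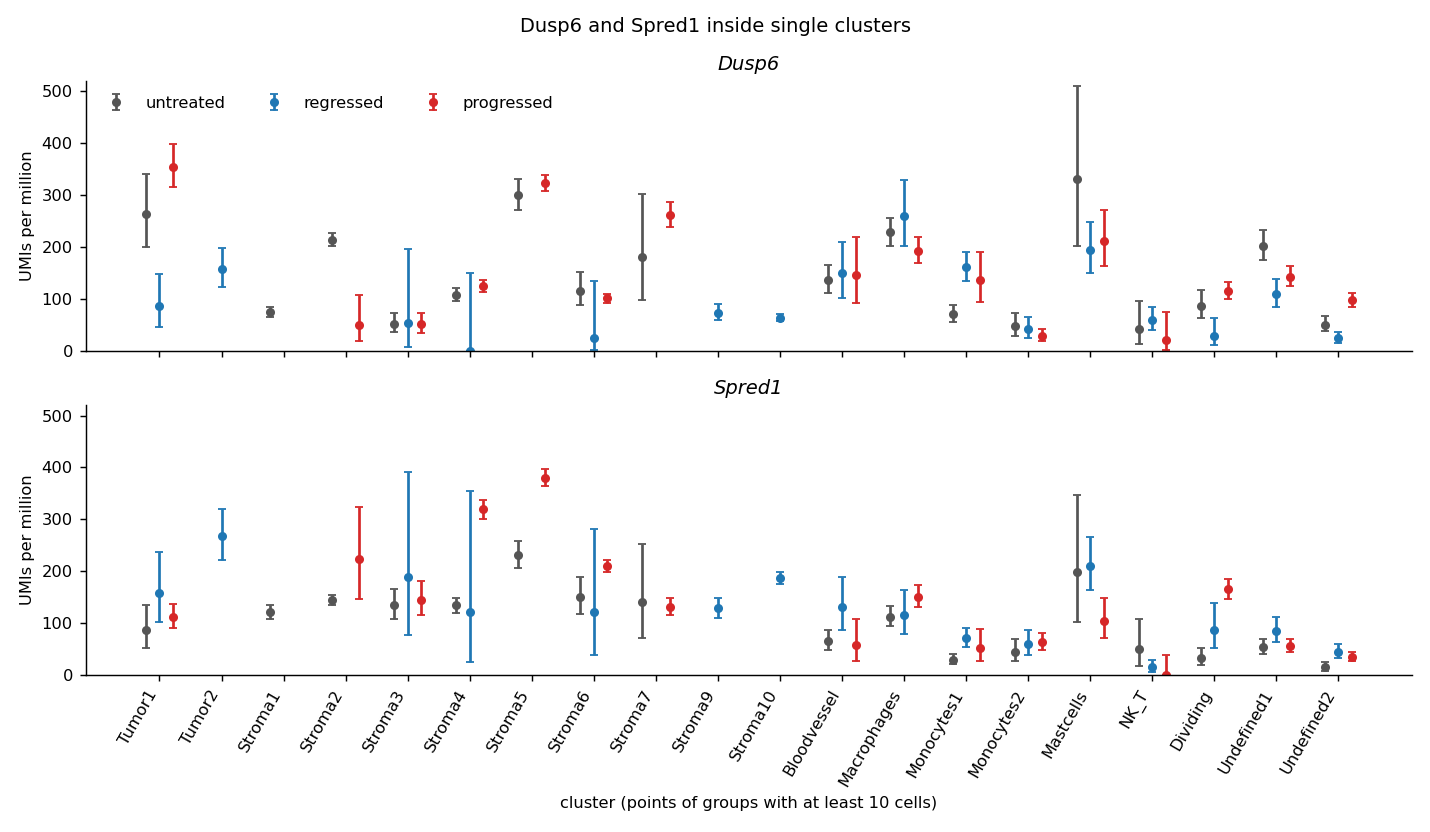
Dusp6 (top) and Spred1 (bottom) in CPM of summed UMIs (vertical) inside single clusters (horizontal) with at least 10 cells in the tumor, for the untreated (grey), regressed (blue) and progressed (red) tumor, with exact Poisson 95% intervals. Dusp6 in Tumor1 was at 263, 86.1 and 355 CPM, and in Monocytes1 at 71.2, 161 and 137 CPM. In progressed Monocytes1 a single cell gave 15 of the 34 Dusp6 UMIs.

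The shift within the phosphatase family shows in its shares. Dusp4 gave 4.23% of the Dusp4 and Dusp6 UMIs of untreated tumor cells (exact Clopper-Pearson 95% interval 0.880 to 11.9%), 34.6% (26.4 to 43.6%) in the regressed and 6.27% (3.87 to 9.52%) in the progressed tumor. In stroma the share was 1.35%, 16.3% and 2.42%. In immune cells it was 2.36%, 10.6% and 10.3%. Shares within a tumor do not depend on its total. The kit reads the ends of transcripts, so that levels of different genes are set side by side here per molecule, without division by length.

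**Figure D3:**
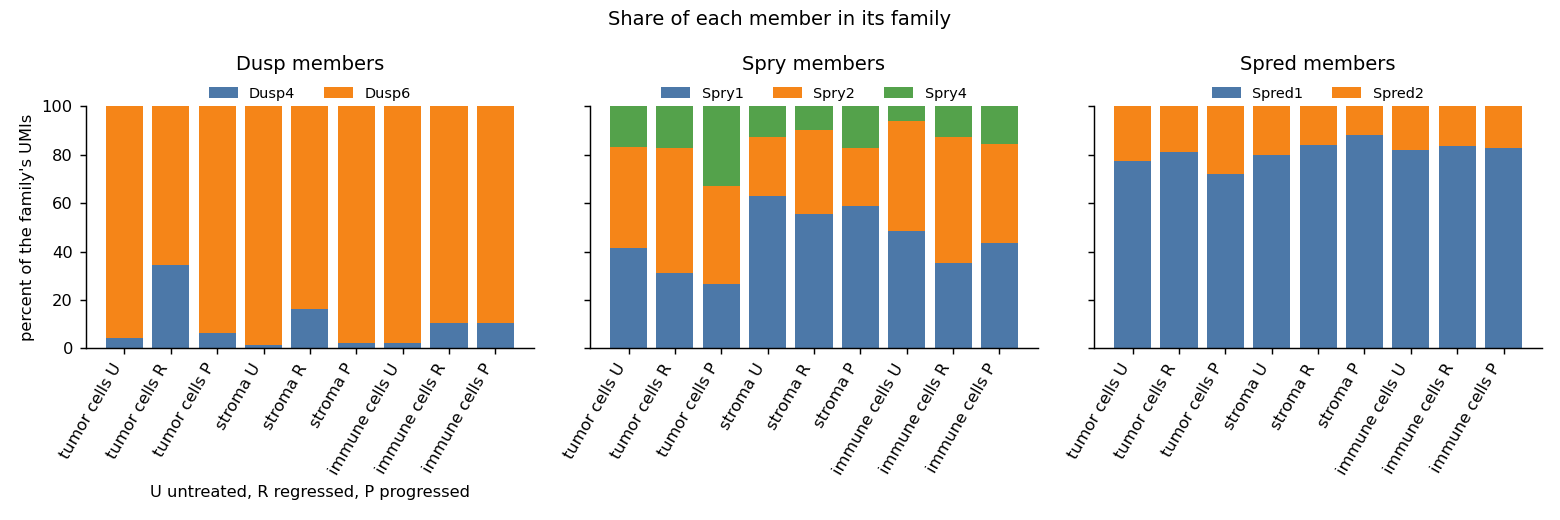
Percent of each family's UMIs (vertical) given by each member, for tumor cells, stroma and immune cells of the untreated (U), regressed (R) and progressed (P) tumor. The Dusp4 share was 34.6% in regressed tumor cells and 4.23% and 6.27% in the others. The Spry4 share was 32.8% in progressed tumor cells and 16.7% and 17.2% in the others.

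Of the Sprouty genes, whose products act on Ras and receptor signaling, Spry1 was stromal. It stood at 272 CPM (3830 UMIs), 184 CPM (1183 UMIs) and 158 CPM (2783 UMIs) in stroma of the untreated, regressed and progressed tumor, at 75.8, 60.4 and 75.0 CPM in tumor cells and at 19.1, 25.6 and 11.96 CPM in immune cells. The immune level was 7.02%, 13.9% and 7.56% of the stromal one, next to 8.30%, 10.6% and 7.55% for 5 fibroblast markers (Col1a1, Col1a2, Dcn, Pdgfra, Fap). Spry1 in immune cells of the untreated and progressed tumor was thus at the level at which fibroblast transcripts were found there. In tumor cells the Spry1 level was 27.9%, 32.8% and 47.4% of the stromal one, above the 8.15%, 9.75% and 10.2% of those markers.

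Stromal Spry1 was lower in the progressed than in the untreated tumor, by a log2 ratio of -0.78 (-0.85 to -0.71), inside the 2-fold limit. The same direction was found in each of the 5 stromal clusters where the interval lay apart from 0. Spry1 was 352 against 149 CPM in Stroma2, 270 against 97.9 CPM in Stroma3 and 333 against 213 CPM in Stroma6. In Stroma4 it was 239 against 184 CPM and in Stroma5 136 against 107 CPM. Stroma3 differed most, with a ratio of -1.46 (-1.93 to -1.02). In Bloodvessel Spry1 was 108 CPM untreated, 46.6 CPM regressed and 229 CPM progressed, but 25 of the 36 progressed UMIs came from 1 cell, and with equal weight per cell the progressed over untreated ratio of 1.09 was 0.35.

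Spry2 was found in stroma, tumor cells and the cytolytic lymphoid cluster. In stroma it was 104, 116 and 63.9 CPM, so that the progressed tumor was the lowest, with a log2 ratio of -0.86 (-0.995 to -0.72) over the regressed and -0.70 (-0.81 to -0.59) over the untreated tumor. Inside clusters, the progressed over untreated ratio was -1.02 (-1.43 to -0.59) in Stroma6, -0.59 (-0.88 to -0.30) in Stroma5 and -1.25 (-2.12 to -0.41) in Stroma8, where the untreated level of 263 CPM was the highest Spry2 level of that tumor among clusters with at least 20 cells. In Stroma4 the untreated and progressed levels were 62.9 and 62.7 CPM.

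In tumor cells Spry2 was 75.8, 101 and 113 CPM and no pair of tumors had an interval apart from 0. In Tumor1 alone it was 81.6 CPM (18 UMIs), 192 CPM (29 UMIs) and 115 CPM (95 UMIs), highest in the regressed tumor, in which Dusp6 was lowest in the same cells. The regressed over untreated ratio was 1.23 (0.34 to 2.17) and the progressed over regressed ratio -0.74 (-1.36 to -0.09). Tumor2 of the regressed tumor was at 69.7 CPM (31 UMIs), below Tumor1.

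Among immune clusters Spry2 had its highest level in NK_T_Cytolytic in each tumor, a cluster in which the 5 NK and T cell markers summed to 15221 to 22234 CPM. It was 286 CPM in 15 untreated cells (11 UMIs), 277 CPM in 58 regressed cells (54 UMIs) and 148 CPM in 24 progressed cells (12 UMIs), with overlapping intervals. Fibroblast markers were at 963, 2491 and 3360 CPM there, in the opposite order. The regressed level was the second of that tumor after Stroma4, which rested on 8 UMIs in 20 cells. Spry4 stood high in the same cells, at 104 CPM (4 UMIs), 82.2 CPM (16 UMIs) and 24.7 CPM (2 UMIs). NK_T_Cytolytic held 49.5% of the Spry2 UMIs and 59.3% of the Spry4 UMIs of regressed immune cells, while being 6.06% of those cells. In the untreated tumor it held 13.75% of the immune Spry2 UMIs and 36.4% of the Spry4 UMIs with 1.42% of the immune cells, and in the progressed tumor 35.3% and 15.4% with 3.51% of them. Most of the Spry2 signal of those tumors thus lay in other clusters, with 23 of 80 UMIs in Neutrophils and 21 in Monocytes1 of the untreated tumor and 13 of 34 in Monocytes2 of the progressed one. The immune levels as a whole were 17.8, 37.7 and 11.3 CPM for Spry2 and 2.44, 9.35 and 4.32 CPM for Spry4, and the part of the cell mix in these differences was not tested. Immune Spry4 was 4.42%, 28.7% and 9.29% of the stromal level, below, above and near the 8.30%, 10.6% and 7.55% of the fibroblast markers. NK_T, the other lymphoid cluster, had 33.1, 50.2 and 10.3 CPM of Spry2.

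Spry4 was the member called higher in progressed tumor cells than in those of both other tumors. It was 30.3 CPM (8 UMIs) untreated, 33.6 CPM (20 UMIs) regressed and 91.7 CPM (77 UMIs) progressed, with a log2 ratio of 1.60 (0.55 to 2.86) over the untreated and 1.45 (0.73 to 2.24) over the regressed tumor. In Tumor1 alone the level was 31.7 CPM, 72.8 CPM and 85.7 CPM. The excess over the untreated tumor held there, at 1.43 (0.32 to 2.80), but that over the regressed tumor was 0.24. Single cells weighed on these counts: 1 progressed Tumor1 cell held 13 of 71 UMIs, and 1 regressed cell 6 of 11. With equal weight per cell the tumor-cell ratio of progressed over untreated was 1.06, and after thinning to 1000 UMIs it was 0.63. In stroma Spry4 was 55.3, 32.5 and 46.5 CPM, lowest in the regressed tumor, where Stroma10 had 25.9 CPM and Stroma9 54.2 CPM. The highest level of any cluster with at least 20 cells was 93.4 CPM in progressed Stroma7.

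Spred1, which brings neurofibromin to Ras, was the member with the most UMIs, 9718 in all cells. It was the most abundant member in regressed tumor cells and progressed stroma. In tumor cells it was 90.9 CPM (24 UMIs) untreated, 240 CPM (143 UMIs) regressed and 111 CPM (93 UMIs) progressed. The regressed tumor was above both others, with log2 ratios of 1.40 (0.77 to 2.09) over the untreated tumor and of -1.12 (-1.51 to -0.73) for progressed over regressed. Much of that level lay in Tumor2, at 267 CPM (119 UMIs). In Tumor1 Spred1 was 86.1 CPM, 159 CPM and 111 CPM, and the intervals of all 3 pairs held 0.

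In stroma Spred1 was 145 CPM, 172 CPM and 275 CPM, highest in the progressed tumor. The progressed over untreated ratio was 0.92 (0.85 to 0.997), and the regressed tumor lay between. The difference was found within 3 of the clusters that both tumors had in number. Spred1 in Stroma4 was 134 CPM over 599 untreated cells and 319 CPM over 826 progressed ones, a ratio of 1.25 (1.08 to 1.43). It was 231 against 381 CPM in Stroma5, a ratio of 0.72 (0.55 to 0.90), and 150 against 210 CPM in Stroma6, a ratio of 0.49 (0.14 to 0.85). In Stroma3, with 120 untreated and 88 progressed cells, Spred1 was 135 against 145 CPM, and in Stroma7, with 18 and 444 cells, 141 against 131 CPM, both with intervals that held 0. In Stroma4 and Stroma5 Spry1 differed the other way, as given above.

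Of 13 clusters with at least 20 Spred1 UMIs for regressed over untreated, its interval lay above 0 in 6 and below 0 in 0, and 10.9% of the features readable in as many clusters had at least 6 above 0 and 0 below. Of 16 clusters for progressed over untreated, it lay above 0 in 7 and below 0 in 0, against 3.15% of features. For progressed over regressed it lay above 0 in 1 of 13 clusters and below 0 in 3 (Bloodvessel, Mastcells and Undefined1). At least as many above 0 and at most as many below it were found for 46.2% of features. Such shares of features were worked out for Spred1 alone of the 7 members, with its own counts as the limit. They therefore do not measure how rare its pattern is. The 6 clusters of the regressed over untreated pair were Monocytes1 (29.4 against 70.4 CPM), Neutrophils (17.8 against 47.1 CPM), Bloodvessel (65.5 against 131 CPM), Dividing, Undefined1 and Undefined2. With TMM, which shifts all features of that pair by -0.59 log2 units in immune cells and -0.25 in stroma, the regressed over untreated ratio of Spred1 went from 0.51 to -0.08 in immune cells and from 0.25 to 0.00 in stroma. Mastcells had 199 CPM (12 UMIs in 16 cells), 210 and 104 CPM of Spred1, lowest in the progressed tumor. Their Dusp4 was higher in that tumor than in the regressed one.

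Spred2, the scarcer relative, hardly differed in stroma. It was 36.8, 33.2 and 36.8 CPM there, with progressed over untreated at 0.00 (-0.17 to 0.17) at a depth of 518 and 648 UMIs. In tumor cells it was 26.5 CPM (7 UMIs), 55.4 CPM (33 UMIs) and 42.9 CPM (36 UMIs). The regressed over untreated ratio of 1.06 passed the 2-fold limit, with an interval from -0.14 to 2.48. In immune cells it was 11.3, 14.5 and 21.3 CPM, and the progressed over untreated ratio was 0.91 (0.36 to 1.47). Spred1 gave 72.1 to 88.2% of the Spred1 and Spred2 UMIs in all compartments and tumors.

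**Figure D4:**
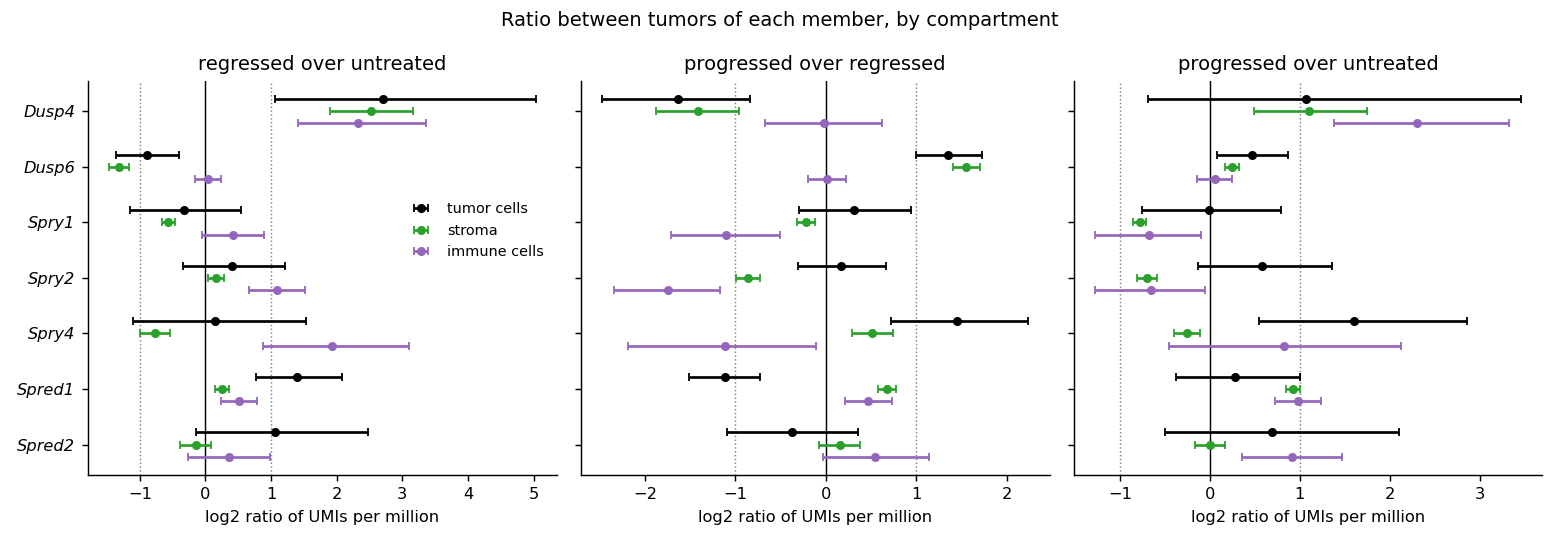
Log2 ratio of CPM between tumors (horizontal) of each member in tumor cells (black), stroma (green) and immune cells (purple), with exact conditional binomial 95% intervals. Dotted lines mark 2-fold. Dusp4 was above the untreated tumor in all 3 compartments of the regressed tumor, by 2.33 to 2.70, and Dusp6 lay between -1.31 and 0.04.

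The order of levels over clusters with at least 20 cells differed by member. Dusp6 was highest in Stroma5, Tumor1 and Macrophages in the untreated tumor (299.7, 263 and 228 CPM), with the intervals of neighbours overlapping, in Macrophages, Mastcells and Monocytes1 in the regressed tumor (260, 194 and 161 CPM) and in Tumor1, Stroma5 and Stroma7 in the progressed tumor (355, 323 and 262 CPM). Spry1 was led by stromal clusters in the untreated and regressed tumors, by Stroma2, Stroma6 and Stroma3 (352, 333 and 270 CPM) in the first. Spred1 was led by Stroma5 in the untreated and progressed tumors (231 and 381 CPM) and by Tumor2 in the regressed one. Spred2 was led by Stroma5 untreated (66.8 CPM), by Tumor1 regressed (66.2 CPM, 10 UMIs) and by Stroma2 progressed (49.5 CPM, 6 UMIs), with intervals that overlapped those of the next clusters. At the low end Spry4 had 0 UMIs in 80 untreated Undefined2 cells, 216 regressed Neutrophils and 53 progressed Monocytes1 cells, and Spry2 had 0 UMIs in the last. By the Poisson interval those zeros allow up to 3.67, 12.4 and 14.8 CPM.

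**Figure D5:**
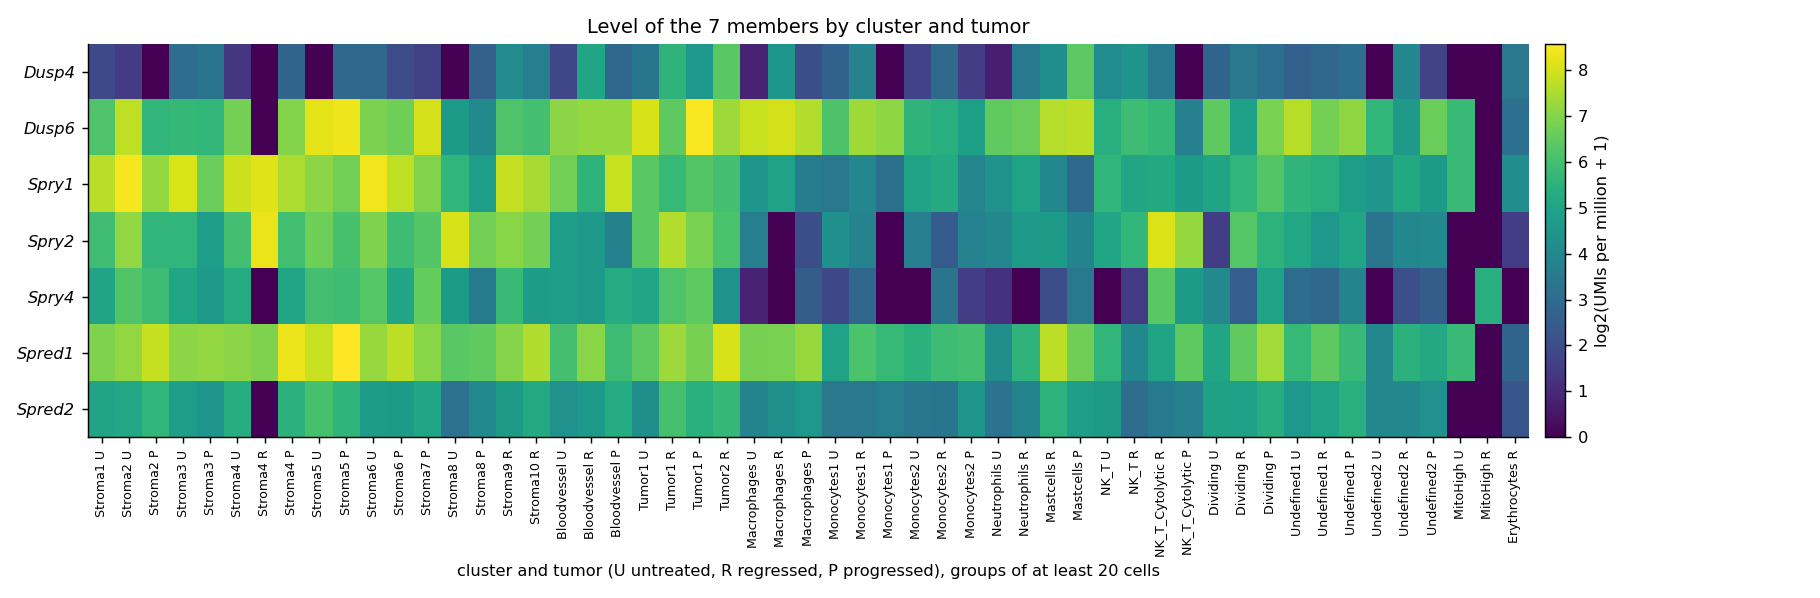
Level of the 7 members as log2 of CPM plus 1 (color) in each cluster and tumor with at least 20 cells (U untreated, R regressed, P progressed). Spry2 in regressed NK_T_Cytolytic cells (277 CPM) and Dusp4 in progressed Mastcells (84.1 CPM) stand out from the other immune groups.

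Over the 53 groups of a cluster and a tumor with at least 20 cells, the members' log2 levels, with a pseudocount of 1, ran together to different degrees. Pearson's r lay between 0.0089 (Dusp4 with Spry1) and 0.70 (Dusp6 with Spred2), with 0.65 for Spry1 with Spred1, 0.64 for Spred1 with Spred2 and 0.04 for Dusp6 with Spry2. The groups share libraries, depth and free RNA, so these values are a description. Among 7921 genes with at least 1000 UMIs, the genes with the pattern most like a member were Gpr37l1, Trim24 and Tpsab1 for Dusp4 (0.67, 0.66 and 0.66), and Tcn2, Taf11 and Cnpy3 for Dusp6 (0.80, 0.78 and 0.78). They were Slc39a13, Pear1 and Arhgef40 for Spry1 (0.83, 0.83 and 0.82), Tle2, Tmem263 and Slc37a3 for Spry2 (0.83, 0.81 and 0.80), and Tmem150a, Rhoj and Zbtb20 for Spry4 (0.80, 0.78 and 0.77). For Spred1 they were Cyp20a1, Gm7936 and a feature without a symbol (0.84, 0.83 and 0.83), and for Spred2 Lrp6, Pdxdc1 and Mpv17 (0.89, 0.87 and 0.87).

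Other genes of the pathway give the setting. Of 10 genes induced by ERK, all with at least 20 UMIs, 3 were called lower (Fosl1, Fos and Ier3) and 2 higher (Etv1 and Myc) in regressed over untreated tumor cells, and 3 higher (Fosl1, Phlda1 and Fos) and 0 lower in progressed over regressed ones. Over all features 22.7% were called in the first pair (1110 higher, 466 lower) and 17.2% in the second (471 higher, 989 lower). Etv1, an ETS factor, was 45.5 CPM untreated and 158 CPM regressed, and Ier3, an immediate early gene, 1079.9 CPM and 185 CPM. In stroma 5 of 10 were called lower and 1 higher (Etv1) in the regressed tumor, and 7 higher and 0 lower from regressed to progressed. Over all features of stroma 20.8% were called in each pair, 2021 higher and 1049 lower in the first and 739 higher and 2347 lower in the second. Phlda1 (794, 263 and 1067 CPM) and Myc (31.5, 14.01 and 76.1 CPM) had the same order there as Dusp6, the regressed tumor lowest. Of 9 other MAPK phosphatase genes 8 could be read in regressed over untreated stroma, where 20.8% of features were called. Dusp1 was called lower (729 against 204 CPM) and Dusp2 and Dusp5 higher (0.568 against 3.42 CPM and 0.355 against 7.32 CPM). Dusp1 was also called lower in tumor and immune cells of the regressed tumor. Dusp2 and Dusp5 were also called higher in its immune cells, where 29.4% of features were called. The part of immune RNA in the low stromal values of Dusp2 and Dusp5 was not tested. Of 10 other negative regulators 5 could be read in regressed over untreated tumor cells, where 22.7% of features were called. Errfi1, an inhibitor of the EGF receptor, alone was called, at 30.3 CPM untreated and 72.1 CPM regressed. Medians of the log2 ratio for regressed over untreated tumor cells were -0.38 for the ERK-induced genes, 0.41 for the 7 members and 0.11 for all features.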

How the data were processed

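Single cells of 3 melanomas were profiled with a 3′ droplet kit. The deposited tables hold UMI counts per gene and cell, which the authors made by alignment to GRCm38 with GSNAP and counting of uniquely mapped exonic reads, keeping cells of at least 300 UMIs. Clusters were named by the authors with Seurat (2.2.0, per the submitters' processing notes), and the deposited table of cells gives a tumor and a cluster name for each, which are labels (unit other). The annotation release is not given in the sources used here. The tables summed to 4.42 to 6.09% more UMIs than the deposited totals. No doublet caller was run and no cell was dropped. Cell names in the tables are numbers, 0 of them shared between libraries, and barcodes could not be compared.

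Counts were summed per cluster or compartment and tumor with Python 3.11.15 (numpy 2.4.6, scipy 1.17.1, pandas 2.3.3) and divided by all UMIs of the group. Levels carry exact Poisson and ratios exact conditional binomial 95% intervals. The ratio intervals were checked only on simulated Poisson counts, which leave out any further spread between cells. A feature at 0 was set to 3 UMIs. Features were called at 2-fold with at least 20 UMIs in the pair of tumors, and cluster ratios need at least 10 cells in both tumors. With 1 tumor per group no test was possible and no p-value is given. Alternatives were TMM scaling (edgeR 4.0.16), equal weight per cell, thinning to 1000 UMIs, dropping the 5% deepest cells, Tumor1 alone, stromal clusters shared by all tumors, other totals and other minimums of UMIs. Named were all members, per member the 3 highest clusters and the lowest of each tumor and the 3 genes of most similar pattern, and in pathway lists up to 2 called genes at each end, besides lists given whole. The members and lists were chosen with earlier results of these data known. Symbols were matched for 31049 of 36530 features. Part of the genotype, 1 tumor cell marker and the list of cascade genes are not reported here.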

Additional observations from a re-analysis of the deposited data

Results flagged for a closer look

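For 2 members a pair of tumors differed in opposite directions in 2 compartments, each with a counting interval apart from 0. With 1 tumor per group the difference itself was not tested. Spry4 was 0.77 log2 units lower in regressed than untreated stroma (-0.77) and 1.94 higher in immune cells, a gap of -2.70. From the regressed to the progressed tumor Spry4 was higher in tumor cells (1.45) and stroma (0.52) and lower in immune cells (-1.11), gaps of 2.56 and 1.63. From the untreated to the progressed tumor it was higher in tumor cells (1.60) and lower in stroma (-0.25), a gap of 1.85. The immune values rest on 11, 27 and 13 Spry4 UMIs, at 4.42%, 28.7% and 9.29% of the stromal level, where fibroblast markers were at 8.30%, 10.6% and 7.55%. The untreated value was below, the regressed value above and the progressed value near the marker level. The part of stromal RNA in the immune values was not tested. Spred1 was lower in progressed than regressed tumor cells (-1.12) and higher in stroma (0.68) and immune cells (0.47), gaps of -1.79 and -1.59.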

How the results depend on the processing

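No paired analysis was possible because each group held 1 tumor. Of the 54 recomputed sums of the 7 members, 34 stayed inside the counting interval of the value reported, and of the 72 recomputed counts of members called, 57 stayed within 1.5 times it. Under TMM scaling the log2 ratio of the sum was -0.58, 0.64 and 0.0594 in stroma (regressed over untreated, progressed over regressed, progressed over untreated) and -0.18, 0.27 and 0.0933 in immune cells, the first of these reversed, and 1 member was called for progressed over regressed immune cells in place of 3. That scaling shifts all features by -0.59, 0.32 and -0.27 in immune cells, -0.25, 0.31 and 0.06 in stroma and 0.13 in progressed over regressed tumor cells. It moved the share of calls that were higher, over all features, from 87.1 to 49.2%, 19.3 to 42.6% and 62.3 to 40.9% in immune cells, from 65.8 to 46.9% and 23.9 to 47.3% in the first pairs of stroma and from 32.3 to 43.2% in that pair of tumor cells. With equal weight per cell the sum was reversed in regressed over untreated tumor cells (-0.15) and was 0.22 for progressed over untreated tumor cells, 0.23 for progressed over regressed and -0.0955 for progressed over untreated stroma. After thinning it was -0.18 (reversed) and 0.0751 in the same pairs of tumor cells, 0.22 and -0.0814 in those of stroma and, for progressed over regressed immune cells, 0.10. In the shared stromal clusters it was -0.11, -0.15 (reversed) and -0.26. Dusp4 was reversed there at -0.13 and 0.72, on 1 regressed UMI, in Stroma8. Without the deepest cells it was -0.0567 for progressed over untreated stroma, and in tumor cells with a transgene UMI, an alternative chosen after seeing the data, 0.44 for progressed over regressed. The count of members called in progressed over untreated tumor cells was 1 with equal weight, 0 after thinning, 1 without the deepest cells, 1 with a transgene UMI and 1 with a minimum of 50 UMIs. That minimum gave 1 in regressed over untreated tumor cells, and Tumor1 alone gave 2 in progressed over regressed. For progressed over untreated stroma the count was 0 with equal weight, without the deepest cells and in shared clusters. In immune cells it was 2 with equal weight, 3 after thinning and 2 without the deepest cells for that pair, and 1 after thinning for regressed over untreated. The cause of these changes was not tested. Single members under the alternatives gave 303 values inside the reported interval, 71 outside it and 2 reversed. Reversed means a changed sign where the reported interval lay apart from 0 and, for single members, the reported ratio was at least 2-fold. Depth limits tumor cells most, with 263922 untreated UMIs.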
